A study of Mus musculus with 4 samples.

Results

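Antibody transcripts were measured in the quadriceps of 4 mice as 37 rows of a whole-transcript expression array, out of 41345 rows in all. A row entered when every gene symbol paired with it began with Ighv, Ighg, Igha, Igkv, Igkc, Iglv or Iglc or was Ighm, or when it carried a single plasma cell symbol: Jchain, Mzb1, Sdc1 or Tnfrsf17. A group of 2 mice was NF90-NF45 double transgenic (dbTg), carrying transgenes for NF90 and its partner NF45: dbTg 1, a male, and dbTg 2, a female, both 16 weeks old. The 2 wild-type (WT) mice were WT 1, a male of 17 to 18 weeks, and WT 2, a female of 16 weeks. Nothing in the labels names the promoter or the cells that drive the transgenes. Each array held total RNA of 1 mouse, and its values are log2 units from RMA, the authors' summary of the probes in each row. The rows were chosen by symbol, and the family was selected on its dbTg and WT levels, which were already known, so the differences between genotypes below are a description, and nothing is supported by their direction.

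An antibody is built from heavy chains and light chains, and the light chains are of kappa or lambda type. Each chain has a variable region, chosen in every B cell by joining gene segments, and a constant region that sets its class: Ighm encodes the constant region of IgM and Ighg3 that of IgG3. Plasma cells are the B cell descendants that secrete antibody. The J chain (Jchain) links IgM and IgA into polymers, Mzb1 helps antibody folding in the endoplasmic reticulum, syndecan-1 (Sdc1) is the surface marker of plasma cells, and Tnfrsf17 encodes BCMA, a receptor for their survival signals. Resting muscle holds few B cells. In bulk RNA, fewer cells of a type and less RNA per cell cannot be told apart.

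Of the 37 rows, 33 had 1 symbol and 4 had several. The 25 distinct symbols comprised 19 variable segments and 2 constant regions, with the plasma cell genes as the remainder. Rows with 1 symbol were 7 of Ighm, 2 of Ighg3, 3 of heavy variable, 15 of kappa variable and 1 of lambda variable genes, and 5 of plasma cell genes. Igha, Igkc and Iglc were paired with 0 rows. Of the 25 symbols, 3 had an entry in the RefSeq promoter table. The promoters of the plasma cell genes Jchain and Tnfrsf17 are shown. They were picked without a rule, and the remaining entry is left out. Each is the 250 bases before the annotated start in GRCm38.p6, 5′ to 3′ on the gene's strand: chr5:88527898-88528147, minus strand, for Jchain and chr16:11313559-11313808, plus strand, for Tnfrsf17. Capitals mark matches on either strand to the octamer ATGCAAAT, known from antibody gene promoters, to the core GAGGAA bound by the factor PU.1 and to the TATA motif TATAAA.
Jchain: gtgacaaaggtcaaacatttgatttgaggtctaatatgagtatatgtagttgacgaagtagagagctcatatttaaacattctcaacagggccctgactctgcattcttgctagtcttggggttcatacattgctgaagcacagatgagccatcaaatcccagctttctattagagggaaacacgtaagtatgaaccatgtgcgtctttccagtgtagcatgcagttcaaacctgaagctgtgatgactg
Tnfrsf17: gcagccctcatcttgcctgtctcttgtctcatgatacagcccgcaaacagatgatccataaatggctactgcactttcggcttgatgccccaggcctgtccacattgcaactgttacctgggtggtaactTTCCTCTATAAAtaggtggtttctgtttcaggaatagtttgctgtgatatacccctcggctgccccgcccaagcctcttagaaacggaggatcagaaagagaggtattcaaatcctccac
In Tnfrsf17 the capitals hold GAGGAA on the minus strand from base 120 to 115 before the start, directly followed by TATAAA from base 114 to 109, with no overlap. In Jchain 0 of the 3 motifs had a match, which says only that these letters are not in this window. Among 32851 promoter windows of the same length, 1.6% held the octamer, 23.3% GAGGAA and 12.4% TATAAA. Any link between these motifs and expression was not tested, and Tnfrsf17 gave no reading above background on these arrays, as described below.

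Many antibody rows were dim, as were many rows of the whole array, and a few antibody rows were far higher in dbTg muscle. The level at which a row cannot be told from background was described by odorant receptor rows, taken here as mostly unexpressed in muscle. Odorant receptor values reached 5.90, so not all of these rows read background. Their 95th percentile over 1108 rows was 1.66 and 1.70 on the dbTg arrays and 1.92 and 1.86 on the WT arrays. Above it lay 17 and 13 of the 37 rows on dbTg 1 and dbTg 2, against 9 and 8 on WT 1 and WT 2. Of all rows of the array, 46.8% and 46.0% lay above it on dbTg 1 and dbTg 2, against 39.9% and 40.8% on WT 1 and WT 2. On all 4 arrays 6 of the 37 rows lay above it, and on none of them 17, beside 18633 of all 41345 rows on none. Those 17 rows had values of 0.08 to 1.58 and differences of -0.32 to 0.25. The odorant receptor rows themselves had a median difference of -0.19, so small negative differences among dim rows were common on these arrays.

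Of the 37 rows, 22 had positive and 15 had negative differences, with a median of 0.03 on the log2 scale beside -0.04 over all rows. A difference of at least 1 was found for 7 rows higher in dbTg, beside 2.95% of all rows, and for 0 rows lower, beside 1.35%. The 7 rows had gaps of 0.89 to 3.93 between the lower dbTg value and the higher WT value. Groups did not overlap for 11 rows higher in dbTg, beside 20.7% of all rows, and for 5 rows lower, beside 25.7%. In limma, fitted over all 41345 rows with Benjamini-Hochberg adjustment, 0 member rows were called at an adjusted p under 0.05, beside 0.0121% of all rows called higher (5 rows) and 0% called lower. The smallest adjusted p of a member was 0.0600. At an unadjusted p under 0.05 limma had 7 member rows higher, beside 6.67% of all rows, and 0 lower, beside 6.3%. When the fit was kept to rows with a symbol and a mean at or above their 40th percentile, a setting chosen after seeing the data, 4 members were called higher, beside 2.09% of the rows in it, and 0 lower, beside 0.171%. They were 17284354, 17459415, 17284605 of Ighm and Jchain, and nothing is read from this count.

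**Figure D1:**
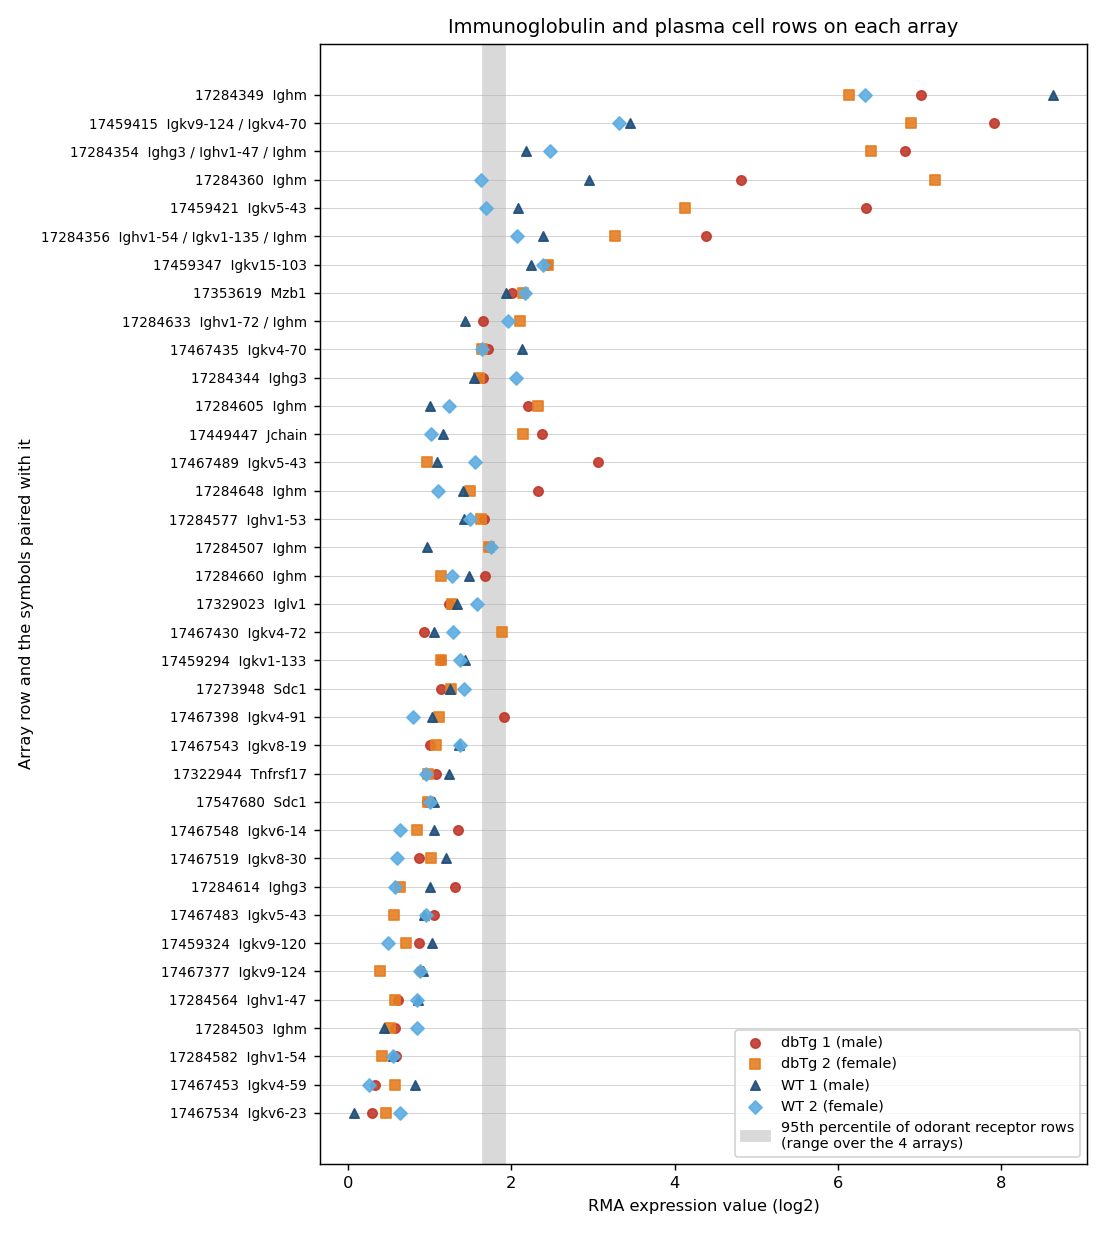
RMA expression value (log2, horizontal) of each of the 37 rows on the 4 arrays, sorted by their mean; the grey band is the 95th percentile of odorant receptor rows. The dbTg points of 7 rows, Jchain among them, stand clear to the right of the WT points, while the brightest row, 17284349 of Ighm, has its highest point, 8.63, in WT 1.

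Rows paired with several symbols held the largest differences. The annotation does not say how their probes divide between the genes, so their values are given by row and to no single gene. Row 17284354, paired with Ighg3, Ighv1-47 and Ighm, read 6.82 and 6.40 on dbTg 1 and dbTg 2, against 2.18 and 2.47 on WT 1 and WT 2. Both dbTg mice were far above both WT mice. The difference was 4.28 (SE 0.25), or 19.5-fold.

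Row 17459415, paired with Igkv9-124 and Igkv4-70, read 7.91 and 6.90 in dbTg mice, against 3.45 and 3.31 in WT mice. The groups did not overlap, and the difference was 4.02 (SE 0.37), or 16.3-fold. In the RefSeq order of genes, 35 other variable segments lie between these 2 kappa segments. Row 17284356 was paired with Ighv1-54, Igkv1-135 and Ighm, genes on 2 different chromosomes. It read 4.38 and 3.27 in dbTg mice, against 2.39 and 2.07 in WT mice, a difference of 1.60 (SE 0.41). Row 17284633, paired with Ighv1-72 and Ighm, read 1.66 and 2.11 in dbTg mice, against 1.43 and 1.96 in WT mice. Its groups overlapped, with a difference of 0.19 (SE 0.29).

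Where a row carried their symbol alone, Igkv9-124, Igkv4-70, Ighv1-47, Ighv1-54 and Ighg3 did not show such differences, whereas 2 of the rows of Ighm alone differed by 3.71 and 1.15. Igkv9-124 alone (row 17467377) read 0.88 and 0.39 in dbTg mice, against 0.92 and 0.88 in WT mice. Igkv4-70 alone (row 17467435) read 1.71 and 1.64 in dbTg mice, against 2.12 and 1.64 in WT mice. Ighv1-47 alone (row 17284564) read 0.62 and 0.57 in dbTg mice, against 0.85 and 0.84 in WT mice, and Ighv1-54 alone (row 17284582) stayed at 0.42 to 0.58 on all arrays. Ighg3 alone read 1.66 and 1.60 in dbTg mice, against 1.54 and 2.05 in WT mice, on row 17284344. On row 17284614 Ighg3 read 1.31 and 0.63 in dbTg mice, against 1.00 and 0.58 in WT mice. Apart from 1 WT value each of Igkv4-70 and Ighg3 and the dbTg 1 value of Igkv4-70, these readings lay at or below the odorant receptor level of their array.

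The 7 rows named Ighm disagreed with each other. Row 17284349 was the brightest of all 37 and read 7.01 and 6.13 in dbTg mice, against 8.63 and 6.33 in WT mice. WT 1 was the highest and the other 3 mice lay within 0.88 of each other, so the groups overlapped, with a difference of -0.91 (SE 0.79). The difference was -1.61 in the male mice and -0.20 in the female mice. WT 1 decided its direction: the difference was 0.24 without WT 1 and -2.06 without WT 2. WT 1 was also the oldest mouse, and it differed from WT 2 in sex too. Any link between age and this value was not tested.

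Row 17284360, also named Ighm, read 4.81 and 7.18 in dbTg mice, against 2.95 and 1.63 in WT mice. Here dbTg 2 was the highest and the groups did not overlap, with a difference of 3.71 (SE 0.88). Another Ighm row, 17284605, read 2.20 and 2.33 in dbTg mice, against 1.00 and 1.23 in WT mice, so that only the dbTg values stood above the odorant receptor level. Its difference was 1.15 (SE 0.20). The other 4 Ighm rows (17284648, 17284507, 17284660 and 17284503) had differences of 0.66, 0.37, 0.03 and -0.10. The array annotation does not say which part of the gene or locus each row reads.

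Among variable segments with a row of their own, Igkv5-43 alone had a difference above 1. Igkv5-43, a kappa segment, read 6.34 and 4.12 in dbTg mice, against 2.09 and 1.69 in WT mice, on row 17459421. The groups did not overlap and the difference was 3.34 (SE 0.74), or 10.1-fold. The other Igkv5-43 rows did not repeat this. Row 17467489 read 3.06 in dbTg 1 but 0.96 in dbTg 2, against 1.10 and 1.56 in WT mice. Row 17467483 read 1.06 and 0.56 in dbTg mice, against 0.94 and 0.95 in WT mice.

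The 19 rows of single variable segments split into 10 positive and 9 negative differences, with a median of 0.02, and 12 of them lay below the odorant receptor level on every array. After Igkv5-43, the largest positive differences were 0.61 for Igkv4-91, 0.25 for Igkv6-14, 0.24 for Igkv4-72, 0.19 for Ighv1-53, 0.13 for Igkv15-103, 0.04 for Igkv8-30, 0.03 for Igkv9-120 and 0.02 for Igkv6-23. Igkv4-91 reached 1.91 in dbTg 1 and 1.12 in dbTg 2, against 1.03 and 0.79 in WT mice. Igkv15-103 was the brightest of these after Igkv5-43, at 2.44 and 2.45 in dbTg mice, against 2.25 and 2.39 in WT mice. The largest negative differences were -0.32 for Igkv8-19, -0.26 for Igkv1-133, -0.26 for Igkv9-124 and -0.25 for Ighv1-47. Iglv1, the lambda segment, differed by -0.21, and Igkv4-59 by -0.09. These negative values lay near the median of -0.19 for odorant receptor rows.

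Of the 5 rows of plasma cell genes, that of Jchain alone was higher in both dbTg mice than in both WT mice, beside 20.7% of all rows. Lower in both dbTg mice was 1 row, 17547680 of Sdc1, by a gap of 0.02, beside 25.7% of all rows. Jchain read 2.37 and 2.15 in dbTg mice, against 1.16 and 1.02 in WT mice. The groups did not overlap, the WT values were under the odorant receptor level, and the difference was 1.17 (SE 0.20). Mzb1 read 2.01 and 2.15 in dbTg mice, against 1.94 and 2.17 in WT mice, a difference of 0.02 (SE 0.21). Tnfrsf17 read 1.08 and 0.98 in dbTg mice, against 1.24 and 0.95 in WT mice, a difference of -0.07 (SE 0.18). The 2 rows of Sdc1 differed by -0.13 (SE 0.18) and -0.06 (SE 0.14), with values of 0.97 to 1.42 over all arrays. Tnfrsf17 and Sdc1 stayed below the odorant receptor level on every array, so they give no reading of plasma cells here.

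**Figure D2:**
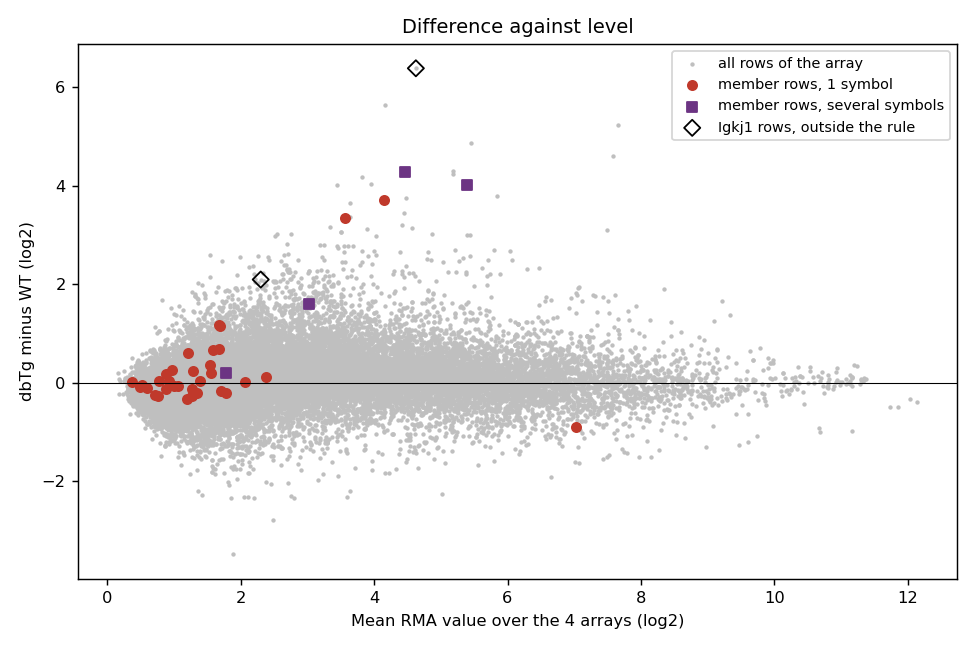
Difference dbTg minus WT (log2, vertical) against the mean RMA value over the 4 arrays (log2, horizontal) for all 41345 rows (grey), member rows (red circles with 1 symbol, purple squares with several) and the 2 Igkj1 rows outside the rule (open diamonds). Most members sit in the dim end near 0, while 17284354 and 17459415 reach 4.28 and 4.02 and the Igkj1 row 17459423 reaches 6.39.

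A pair of rows fell outside the rule because they carry the kappa joining segment Igkj1, and they are given here after their values were seen. Row 17459423, paired with Igkv4-53, Igkj1 and Igkv6-23, read 7.93 and 7.71 in dbTg mice, against 1.80 and 1.07 in WT mice. It rose by 6.39 (SE 0.30, limma adjusted p = 0.0426), with the WT values under the odorant receptor level. It was 1 of the 5 rows called over the whole array, beside those of Ilf2 (which encodes NF45), Cd226, Ankrd1 and Ctss, and its difference exceeded theirs, which were 4.23 to 5.65. The call did not hold without dbTg 1 (adjusted p = 0.645), without dbTg 2 (adjusted p = 0.699) or with the replicate number as a block (adjusted p = 0.242), and narrowly missed the threshold after quantile normalization (adjusted p = 0.0574) and without a trend (adjusted p = 0.0543). The difference itself was 6.28 without dbTg 1, 6.49 without dbTg 2 and 6.02 to 6.75 over all alternatives. Over the same alternatives its adjusted p ranged between 0.000485 and 0.699. Igkv6-23 alone read 0.29 and 0.46 in dbTg mice, against 0.08 and 0.64 in WT mice.

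The row of Igkj1 alone (17467389) was high in 1 mouse. It read 1.27 in dbTg 1 and 5.43 in dbTg 2, against 0.64 and 1.87 in WT mice. The groups overlapped, and the difference of 2.10 had an SE of 1.38. Both rows named Igh-VS107, a heavy chain variable symbol, were dim: 1.88 and 2.58 in dbTg mice, against 1.75 and 1.50 in WT mice, on 17284314, and 1.21 and 1.08, against 1.28 and 1.15, on 17284463. In a list of other immunoglobulin and surrogate chain genes, the largest differences after Igkj1 were -0.44 for Igll1 and 0.34 for Vpreb3.

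The high rows were not equally high in the dbTg mice. Of the 37 rows, 3 lay at least 2 apart on the log2 scale between dbTg 2 and dbTg 1, beside 0.23% of all rows, and 1 between WT 2 and WT 1, beside 1.14%. Ighm row 17284360 was 2.37 higher in dbTg 2, or 5.16-fold. Igkv5-43 was lower in dbTg 2 than in dbTg 1 on both rows concerned, with differences dbTg 2 minus dbTg 1 of -2.22 on 17459421 and -2.10 on 17467489. Igkj1 alone went the way of the Ighm row, 4.16 higher in dbTg 2. Of the 7 rows that were at least 1 higher in dbTg, 5 were higher in dbTg 1 and 2 in dbTg 2. The WT row was 17284349 of Ighm, 2.30 lower in WT 2 than in WT 1. Each of these compares 1 mouse with another, and sex differs between them too.

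**Figure D3:**
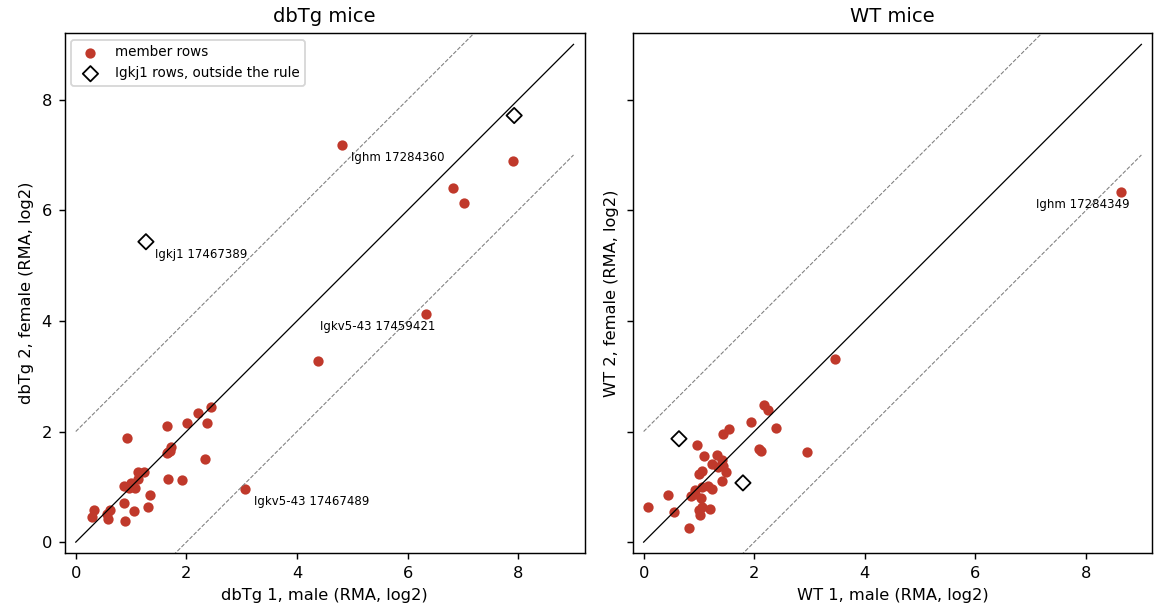
RMA values (log2) of the member rows in the female mouse (vertical) against the male mouse (horizontal), for dbTg on the left and WT on the right; open diamonds are the Igkj1 rows, the solid line is equality and dashed lines are 2 apart. In dbTg mice Ighm row 17284360 and Igkj1 lie above the upper dashed line and both labelled Igkv5-43 rows below the lower, while in WT mice 17284349 alone passes a dashed line.

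Sex was a label that the choice of rows did not use. In a limma fit with genotype and sex, 0 member rows were called higher or lower in females at an adjusted p under 0.05, beside 0% of all rows in each direction, and 3 had an unadjusted p under 0.05, beside 3.92% of all rows. These were Ighm row 17284349 (female minus male -1.59), Ighg3 row 17284614 (-0.55) and Igkv6-14 (-0.46), each with a limma adjusted p = 0.988. This fit leaves 1 residual degree of freedom per row besides what is shared over all rows.

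Most genes that mark B cells were dim in both genotypes. Of 13 rows of B cell markers, 0 passed the test, with a median difference of 0.01, and 8 lay at or below the odorant receptor level on all arrays. In limma 1 of the 13 rows, that of Blnk, was higher at an unadjusted p under 0.05, beside 6.67% of all rows. Lower rows numbered 0, beside 6.3%. Ms4a1, which encodes CD20, read 0.93 and 0.58 in dbTg mice, against 0.95 and 0.87 in WT mice. Cd79a, a signalling chain of the B cell receptor, read 1.60 and 1.45 in dbTg mice, against 1.54 and 1.04 in WT mice. The largest differences of the list were 0.65 for Blnk, an adaptor also used by macrophages, -0.41 for Spib and -0.36 for Fcrla, which is expressed in B cells. On the linear scale the list summed to 53.6 and 56.1 in dbTg mice and 53.7 and 52.1 in WT mice. Ebf1, a B cell factor that fat cells also express, was the brightest of the list, at 4.35 and 4.44 in dbTg mice, against 4.33 and 4.32 in WT mice. Without it the list summed to 33.3 and 34.3 in dbTg mice and 33.7 and 32.1 in WT mice. Of these 12 rows, 8 lay at or below the odorant receptor level on all arrays, so the sums cannot compare the B cells of the genotypes.

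Plasma cell regulators and receptors likewise had 0 of 11 rows past the test, with a median of -0.02. In limma 2 of the 11 rows, those of Slamf7 and Cxcr4, were higher at an unadjusted p under 0.05, beside 6.67% of all rows. Lower rows numbered 0, beside 6.3%. Prdm1, which encodes the plasma cell regulator Blimp-1, read 2.11 and 1.98 in dbTg mice, against 1.98 and 2.14 in WT mice. Irf4, a factor needed for plasma cell formation, differed by -0.13. Xbp1, a driver of the secretory programme, differed by 0.48 (SE 0.25), the chemokine receptor gene Cxcr4 by 0.79 (SE 0.26) and Slamf7, a surface receptor of plasma cells and other leukocytes, by 1.22 (SE 0.21). Of 22 rows of the secretory pathway, 0 passed the test, with a median of 0.30. At an unadjusted p under 0.05 in limma, 7 of them were higher and 1 was lower, beside 6.67% and 6.3% of all rows. Its largest differences were 0.99 for Edem1, which helps to clear misfolded proteins, 0.74 for the disulfide isomerase gene Pdia6 and 0.71 for Creld2, and muscle fibres use these genes too. A second row of Edem1 read 0.78 and 0.58 in dbTg mice, against 0.85 and 1.39 in WT mice. Survival factors of plasma cells had 0 of 8 rows past the test, with a median of 0.05: Tgfb1 differed by 0.66, Tnfsf13b, which encodes BAFF, by 0.48, and Il21 by -0.32. In limma 0 of these 8 rows were higher or lower at an unadjusted p under 0.05.

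Among 9 rows of receptors and transporters that bind antibody, 7 had positive and 2 had negative differences, with a median of 1.07. None passed the test in limma at an adjusted p under 0.05 (0 of 9). At an unadjusted p under 0.05 in limma, 6 were higher and 0 lower, beside 6.67% and 6.3% of all rows. Fcer1g, the signalling chain shared by Fc receptors, read 4.74 and 4.66 in dbTg mice, against 2.51 and 2.25 in WT mice (difference 2.32, SE 0.22). Fcgr1, the high-affinity IgG receptor, differed by 1.71 (SE 0.35) and the cytosolic antibody receptor gene Trim21 by 1.47 (SE 0.21). The negative ones were Pigr, which encodes the receptor that carries polymeric antibody across epithelia, at -0.32 with groups that did not overlap, and Fcamr, a receptor for IgA and IgM, at -0.07. Fcgrt, which encodes the neonatal Fc receptor that carries IgG across cells, read 6.56 and 7.15 in dbTg mice, against 6.62 and 6.24 in WT mice.

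Of 16 rows of leukocyte and macrophage markers, 1 passed the test (Ctss) and 2 had negative differences. At an unadjusted p under 0.05 in limma 14, Ctss among them, were higher and 0 lower, beside 6.67% and 6.3% of all rows. The largest differences were 4.23 for Ctss, 3.76 for Cd68 and 2.99 for H2-Ab1. Some genes of this list, such as Ptprc, Cd52 and the class II genes, are used by B cells as well. The list summed on the linear scale to 624.3 and 566.5 in dbTg mice and to 100.3 and 94.4 in WT mice. The neutrophil genes S100a8 and S100a9 differed by -0.12 and -0.06, and S100a8 lay below the odorant receptor level on every array. The part of these cells in the antibody rows was not tested. T cell markers had 0 of 10 rows past the test and a median of 0.20, with 7 positive and 3 negative differences. Thy1 differed by 1.05, Cd28 by 0.64, Cd8b1 by 0.62, Cd3e by 0.51, Cd3g by 0.27, Cd8a by 0.13 and Cd4 by 0.03. Cd2 differed by -0.34, Cd3d by -0.10 and Cd5 by -0.04. At an unadjusted p under 0.05 in limma, 4 of the 10 T cell rows were higher and 0 lower, beside 6.67% and 6.3% of all rows. The 21 rows of T cell receptor variable segments, which are built like the antibody segments, had 4 positive and 17 negative differences and a median of -0.21. Of these, 12 lay at or below the odorant receptor level on every array. The odorant receptor rows had 210 positive and 898 negative differences and a median of -0.19.

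**Figure D4:**
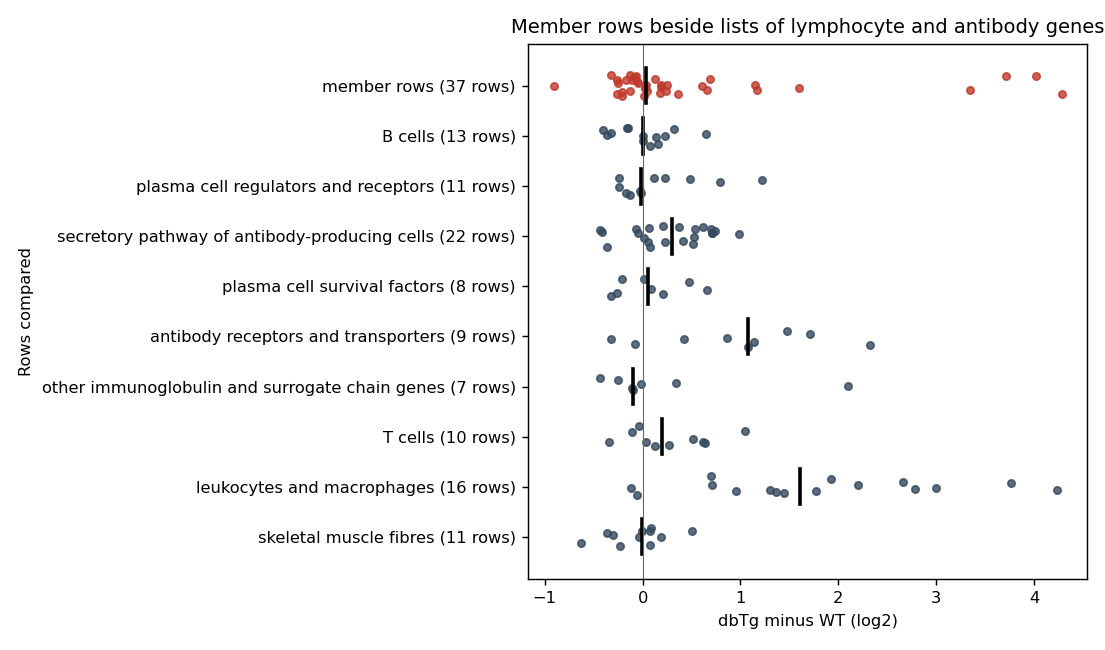
Difference dbTg minus WT (log2, horizontal) of each member row (red) and each row of the listed genes (dark), with a black bar at the median of each list. The members have a median of 0.03 with a tail up to 4.28, whereas leukocyte and macrophage markers have a median of 1.61 and B cell markers of 0.01.

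The array medians over all rows lay between 1.55 and 1.60, but the upper quartiles were 2.99 and 2.98 on the dbTg arrays and 2.80 and 2.78 on the WT arrays. The medians of odorant receptor rows were 0.78 and 0.76 on the dbTg arrays and 0.99 on each WT array. Over all rows, Pearson's r between arrays was 0.975 within dbTg, 0.947 within WT and between 0.946 and 0.948 across groups (rows are not independent replicates), so the WT arrays were no closer to each other than to the dbTg arrays. Muscle fibre genes were bright on every array: Acta1, skeletal actin, read 11.16 and 11.06 in dbTg mice, against 11.02 and 11.05 in WT mice, and the list of muscle fibre genes had a median difference of -0.01. The largest differences of this list were -0.62 and -0.36 on the rows of Ckm and 0.51 for Myh1. Ilf2 read 10.36 and 10.16 in dbTg mice, against 5.03 and 5.04 in WT mice.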

How the data were processed

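Total RNA of 4 quadriceps, 1 array per mouse, gave 2 dbTg and 2 WT arrays. The deposited values are log2 expression values made with Affymetrix Expression Console by RMA-sketch, per the labels' descriptions and the submitters' processing notes. No source used here gives the software version or the annotation build. RMA corrects background, normalizes arrays by quantiles and summarises probes, so values near the floor are compressed. All 4 value columns were used and 0 left out.

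Rows were named from a table of the platform's annotation. Entrez identifiers of 25 of 25 member symbols were found in a RefSeq gene table (GRCm38.p6), and 0 symbols differed. The members, lists and tests were chosen with earlier results of these data known. Rows were named by rule: plasma cell and constant region rows, variable segments with the largest differences or levels, rows with several symbols, and the 3 largest differences of each list. Some other listed genes were named outside this rule.

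All 41345 rows were fitted with limma 3.58.1 in R 4.3.3 (lmFit and eBayes with trend = TRUE, where each row had 2 residual degrees of freedom and borrowed 3.06), two-sided, with Benjamini-Hochberg adjustment and a threshold of 0.05. No filter on low values was used, since a filter on the mean over 4 arrays admits rows through 1 group. SEs are limma's, and a difference is dbTg minus WT on the log2 scale. With 2 arrays against 2, an exact permutation test cannot give a p below 0.333. On simulated data with independent noise, the check asked only whether the mean estimate matched the added change. It has no bearing on the calls made here. Linear sums add 2 to the power of each value. The labels' replicate numbers coincide with sex; deviations of arrays with the same number correlated at 0.005 over all rows, and the numbers were not taken as pairs.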

Additional observations from a re-analysis of the deposited data

Results flagged for a closer look

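The difference dbTg minus WT had opposite signs in the male and the female mice for 15 of the 37 rows, beside 39.3% of all rows of the array. With 1 mouse of each genotype in each sex, the difference between the sexes was not tested. Both values exceeded 0.5 in size for 1 row, 17467489 of Igkv5-43, at 1.97 in males and -0.60 in females. The difference was 0.068 in males and -0.02 in females for Mzb1 (17353619), -0.41 in males and 0.003 in females for Igkv4-70 (17467435) and 0.12 in males and -0.45 in females for Ighg3 (17284344). It was 0.76 in males and -0.03 in females for Ighm (17284507), 0.19 in males and -0.13 in females for Ighm (17284660) and -0.12 in males and 0.60 in females for Igkv4-72 (17467430). Further rows had differences of -0.16 in males and 0.03 in females for Tnfrsf17 (17322944), -0.34 in males and 0.42 in females for Igkv8-30 (17467519) and 0.12 in males and -0.39 in females for Igkv5-43 (17467483). Others had -0.15 in males and 0.22 in females for Igkv9-120 (17459324), 0.12 in males and -0.33 in females for Ighm (17284503) and 0.031 in males and -0.13 in females for Ighv1-54 (17284582). Values were -0.48 in males and 0.31 in females for Igkv4-59 (17467453) and 0.21 in males and -0.18 in females for Igkv6-23 (17467534).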

How the results depend on the processing

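Over all rows, limma called 5 higher and 0 lower in dbTg. Leaving out 1 array gave 0 to 4 higher, where a genotype left with 1 array takes its spread from the other genotype. Without either dbTg array it gave 0, without WT replicate 1 it gave 2, and lower rows numbered 0 in each case. With the replicate number as a block 0 were called, after quantile normalization 2, without a trend 0, and at a threshold of 0.10 there were 37 higher and 11 lower. In an alternative chosen after seeing the data, which kept the rows with a symbol and a mean at or above their 40th percentile of 1.46, 317 rows were higher and 26 lower of 15201. Fewer rows tested and a different shared spread are part of its construction.

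The count of member rows called higher was 0 and became 2 at the threshold of 0.10 (17284354 and 17459415). It became 4 among the rows with a symbol above that percentile, with 17284605 of Ighm and Jchain added. Of the 17 members that passed there, 6 had a WT mean under the filter, so this count supports nothing about the members. Member rows called lower, and member rows called for sex, stayed at 0 under every alternative run for them. The median difference of the members was between 0.01 and 0.13 when 1 array was left out, 0.07 after median centring and 0.09 after quantile normalization. It was not computed under the filters, which remove members. Values near the odorant receptor level have no order.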
